A study of Mus musculus with 4 samples.

Results

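The cells described here are the 1000 cells of fat population P2 that carried the most RNA of Cxcl13, which encodes a chemokine that attracts B cells. They were picked from 7191 kept cells of 1 library by the UMIs (unique molecular identifiers, that is counted RNA molecules) of Cxcl13 per 10000 UMIs of the cell. Kept cells had 2000 or more UMIs and 500 or more genes, and no more than 10% mitochondrial UMIs. The Cxcl13-high cells made up 13.9% of the kept cells of their library, and the kept cells of all 4 libraries numbered 9624. They were set against the 5242 kept cells with 0 Cxcl13 UMIs, called Cxcl13-zero cells below. A further 949 cells had at least 1 Cxcl13 UMI but ranked below the first 1000.

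The series profiled stromal and vascular cells that were sorted from fat and from lung of C57BL/6 mice, with 1 droplet library per tissue and sorted population. In all 4 groups the sort removed blood cells by CD45 and Ter119 (leukocyte and red cell antigens) and took cells positive for Tie2, the receptor of angiopoietins. P2 was in addition PDGFRa+ and CD31-, with low CD105 and high Sca1, and P1 was PDGFRa- and CD31+, with high CD105 and low Sca1. Treatment, the fat depot, and the age, sex and number of the animals were not given in the sources used here. With 1 library per group, cells are not replicates, so every difference below is a size without a test, and every interval covers counting error only.

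CXCL13 binds the receptor CXCR5 on B cells and on follicular helper T cells, and draws them into the follicles of lymph nodes and spleen. Its best known source is the reticular and follicular dendritic stroma of lymphoid tissue, where lymphotoxin and NF-kB signalling keep it expressed. In serous fat, stromal and mesothelial cells of fat-associated lymphoid clusters are also known to make it. The mouse gene (ENSMUSG00000023078) is protein coding and lies on chromosome 5 of mm10 from 95956951 to 95961068 on the plus strand.

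The 250 bases before the RefSeq start of Cxcl13 are shown because this gene defines the cells, and those of Fgl2, a gene that was higher in them, are shown for comparison. Capitals mark the motif found, TATAAA in Cxcl13 and TTCNNNGAA (the GAS element bound by STAT proteins, here a palindrome read on both strands) in Fgl2. The Cxcl13 window is chr5:95956689-95956938 and the Fgl2 window chr5:21372423-21372672, both on the plus strand of GRCm38.p6, the assembly named mm10 in the processing notes.
Cxcl13: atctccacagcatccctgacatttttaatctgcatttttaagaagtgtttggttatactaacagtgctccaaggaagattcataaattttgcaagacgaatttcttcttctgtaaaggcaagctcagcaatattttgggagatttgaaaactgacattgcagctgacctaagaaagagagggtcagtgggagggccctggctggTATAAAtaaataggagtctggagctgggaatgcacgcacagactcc
Fgl2: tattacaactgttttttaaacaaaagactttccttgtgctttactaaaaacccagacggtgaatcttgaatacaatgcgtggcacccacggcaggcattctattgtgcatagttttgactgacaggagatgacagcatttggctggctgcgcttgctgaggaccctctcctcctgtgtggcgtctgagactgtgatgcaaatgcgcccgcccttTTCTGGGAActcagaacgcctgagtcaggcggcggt
The TATA box of Cxcl13 began 46 bases before the start, at bases 205 to 210 of the window. Of 32851 mouse promoter windows of this length, 12.4% held TATAAA on either strand and 7.02% held TTCNNNGAA. The same search of both windows for the NF-kB consensus (7.25% of all windows) and for the interferon element ISRE (2.98%) found no match. The windows of Gpx3, Igfbp3, Col15a1 and both starts of Plac8 held none of the 4 motifs. C4b, Chrdl1, Mgp and Fabp4 had no entry. The RefSeq starts differ in part from the GENCODE gene positions given below. By those positions the Fgl2 window runs past the gene start at 21372642. The Gpx3 window (54902604 to 54902853) then lies wholly within the gene. The motifs are matches of letters, and they show nothing about the binding of a factor.

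Cxcl13 RNA was seen in fat P2 and was near 0 in the other libraries. In the kept cells of fat P2 it stood at 238 CPM (UMIs of the gene scaled to 1000000 UMIs in all; 95% Poisson interval 233.8 to 243.1), from 10145 UMIs. A Cxcl13 UMI was found in 1949 of the 7191 cells, which is 27.1% (Clopper-Pearson 95% interval 26.1 to 28.2). With every cell thinned to 2000 UMIs the share was 17.9% (17.0 to 18.8). Of the 4 libraries, fat P2 thus held nearly all of the gene.

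Lung P2, the same gate in the other tissue, held 27 Cxcl13 UMIs in 4 of 778 kept cells, which is 9.24 CPM and 0.514% of cells (0.140 to 1.31; 0.386% thinned). Of these 27 UMIs, 12 lay in a cell of 3184 UMIs and 13 in a cell of 11863 UMIs. The first of these cells held 1 UMI of mesothelial and 75 of fibroblast marker genes. The second held 45 of mesothelial and 486 of fibroblast marker genes, whereas the median mesothelial count of the 774 lung P2 cells without Cxcl13 was 0 and only 5 of them held 10 or more. With 4 positive cells, no gene comparison was made in lung. The P1 library labelled fat held 1 Cxcl13 UMI in 1491 cells (0.172 CPM), and the library labelled lung P1 held 0 in 164 cells, which allows up to 1.83% of cells with a UMI and 7.10 CPM. Tissue markers of the P1 libraries went against their labels: Sftpc, the surfactant protein gene of lung epithelium, was at 792 CPM in the P1 library labelled fat and at 0 in the one labelled lung. The median depth of kept cells was 5410 UMIs in fat P2, 3496 and 2386 in the P1 libraries labelled fat and lung, and 3149 in lung P2.

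Cxcl13 was concentrated in few cells. The values in this paragraph are those that chose the cells, so they describe the choice and test nothing. The Cxcl13-high cells held 8773 UMIs of the gene, 86.5% of all those in kept fat P2 cells, at a summed level of 1514 CPM. Per cell they carried 1 to 80 UMIs with a median of 6, or 4.13 to 129.9 per 10000 UMIs with a median of 10.1. The first 250 cells by rank alone held 48.3% of the Cxcl13 UMIs, and the next 3 groups of 250 held 18.9%, 11.5% and 7.81%. Summed levels in these 4 rank groups were 3539, 1356, 804.5 and 510.9 CPM. At the other end, 35 of the Cxcl13-high cells carried only 1 UMI, 286 carried 3 or fewer, 258 carried 10 or more and 9 carried 50 or more.

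**Figure D1:**
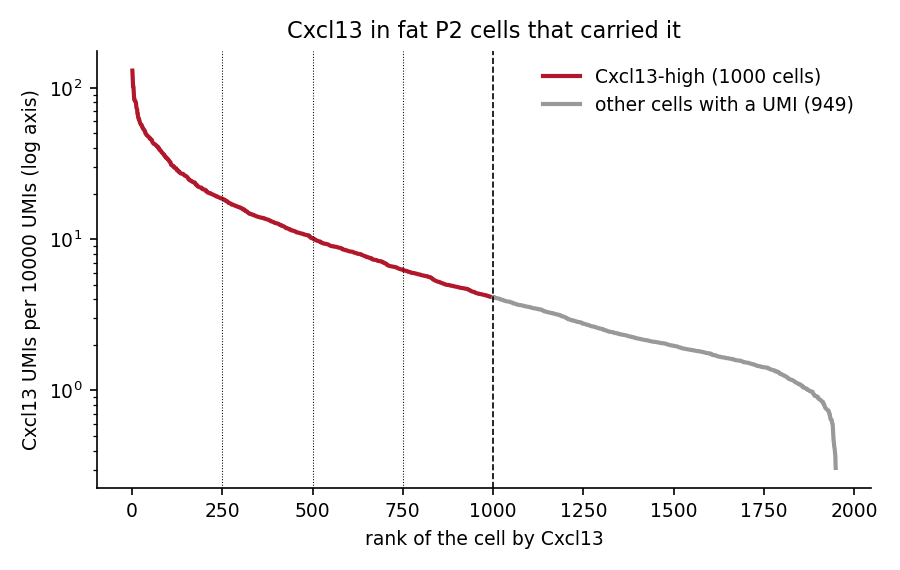
Cxcl13 UMIs per 10000 UMIs (log axis) of each of the 1949 fat P2 cells that carried the gene, in order of rank. The dashed line closes the 1000 chosen cells and dotted lines separate groups of 250; the values run without a step from 4.129 per 10000 at rank 1000 to 4.122 at rank 1001.

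There was no gap at the limit of the choice. The cells at ranks 996 to 1000 carried 4.148, 4.147, 4.137, 4.136 and 4.129 Cxcl13 UMIs per 10000, and those at ranks 1001 to 1005 carried 4.122, 4.112, 4.108, 4.105 and 4.097. Near this limit a cell was inside or outside by its depth as much as by the gene, since 1 UMI in 2411 was inside and 3 in 7309 outside. A Cxcl13-zero cell of the median depth, 5305 UMIs, could still hold the gene at up to 3 counts, which is 5.66 per 10000 and above the lowest chosen cells. The 949 positive cells outside the choice had a median depth of 6094 UMIs and a summed Cxcl13 level of 198 CPM.

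The share of a gene's UMIs in its own 1000 highest cells was also taken for genes of like level. For Cxcl13 that share is the 86.5% of the choice itself, so it is a description and tests nothing. Of 930 other named genes within 2-fold of the level of Cxcl13 (119 to 476 CPM), the median gene had 38.0% of its UMIs in its own 1000 highest cells. Cxcl13 ranked 7 of 931, after Myoc (100%), Cxcl14 (98.3%), Mgp (96.3%), Cxcl1 (89.4%), Hspb1 (88.9%) and Ptx3 (87.1%). Igfbp3 (83.6%) and Mmp3 (83.0%) followed it. After thinning, the variance of Cxcl13 over cells was 5.46 times its mean, against 1.06 for the median gene. This comparison was added after the values had been seen.

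By their markers, the Cxcl13-high cells were fibroblasts. All 12 fibroblast markers were measured, none differed by 1.5-fold from the Cxcl13-zero cells, and their summed level was 66398 against 68927 CPM. The lowest Cxcl13-high cell still held 286 fibroblast marker UMIs per 10000. Of the genes behind the sort, Pdgfra stood at 436 against 451 CPM, Ly6a (Sca1) at 2427 against 1798 CPM and Tek (Tie2) at 190.4 against 153 CPM. Tek UMIs were seen in 34.3% (31.4 to 37.3) of Cxcl13-high and 24.9% (23.8 to 26.1) of Cxcl13-zero cells at 2000 UMIs (61.2% and 47.3% unthinned). Pecam1 (CD31) and Ptprc (CD45) were at 0.863 and 0.690 CPM in the Cxcl13-high cells. Eng (CD105) stood at 36.6 against 47.3 CPM. Pdgfra, Ly6a and Tek were thus present and Pecam1 and Ptprc near 0, the pattern of the P2 gate. Every cell of this library was sorted by these proteins, so the pattern does not set the Cxcl13-high cells apart.

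Markers of other cell types were low, and lower than in the Cxcl13-zero cells for most types. Summed over its list, the mesothelial level was 43.2 against 141 CPM, with Msln, Upk1b and Gpm6a at 0 in the Cxcl13-high cells. The endothelial sum was 32.6 against 59.5 CPM, with Cldn5, Emcn and Ptprb at 0. Kdr, a receptor gene for vascular endothelial growth factor, gave 20.5 of the 32.6 CPM and was higher in the Cxcl13-high than in the Cxcl13-zero cells, where it stood at 11.7 CPM. The mural sum was 55.4 against 74.1 CPM. The B cell sum was 16.1 against 21.5 CPM, the T and NK cell sum 9.32 against 8.92 CPM, and the myeloid sum 3.62 against 35.8 CPM with Csf1r and Adgre1 at 0. Adipocyte genes summed to 34.5 against 33.5 CPM, with Adipoq, Plin1, Cidec and Lep at 0. The lymphatic list summed to 257 against 224.5 CPM, of which Pdpn, a gene that fibroblasts also carry, gave 185 and 159 CPM, and Lyve1, Mmrn1, Ccl21a and Reln were at 0. The epithelial sum was 29.5 against 101 CPM, the Schwann cell sum 63.5 against 83.9 CPM, the satellite cell sum 6.90 against 19.6 CPM and the erythroid sum 25.2 against 25.1 CPM.

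Cells that held at least 10 UMIs from at least 3 markers of another type numbered 141 of 7191. Of the Cxcl13-high cells 5 (0.5%) were among them, of the Cxcl13-zero cells 121 (2.31%). Without these 141 cells the comparison below called 20 genes higher and 61 lower, of which all 20 and all 61 were called with them too. Mesothelial markers reached this level in 73 cells, 1 of them Cxcl13-high. B cell markers went the other way, reaching it in 3 Cxcl13-high (0.3%) and 7 Cxcl13-zero cells (0.134%). Among 93 cells with under 63.6 fibroblast marker UMIs per 10000 (the median cell had 636), 1 carried a Cxcl13 UMI (1.08%, 0.0272 to 5.85), at a median depth of 3370 UMIs against 5316 in the Cxcl13-high cells. That share rests on 1 cell and on cells of lower depth, so it sets no level for RNA from outside the cell, which was not tested. This count was added after the values had been seen. Barcode sequences shared with another library were found for 11 Cxcl13-high cells (1.1%) and 28 Cxcl13-zero cells (0.534%).

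Depth and quality were close between the 2 sets. The median cell had 5316 and 5305 UMIs and 2117 and 2136 genes in Cxcl13-high and Cxcl13-zero cells. Mitochondrial UMIs were 2.48% and 2.97% at the median, and ribosomal protein genes made up 14.3% and 12.9% of the summed UMIs. Both shares moved with Cxcl13 across the rank groups, from 2.59% to 2.26% and from 13.85% to 14.7% between the lowest and the highest group. Their part in the differences below was not tested.

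The comparison of Cxcl13-high with Cxcl13-zero cells asks which other genes these cells carry more or less of. The Cxcl13-high cells held more RNA of the complement genes C4b and C3 and of Gpx3, Plac8, Chrdl1 and Fgl2, and less RNA of genes from the committed preadipocyte and basement membrane lists (Fabp4, Lpl, Col15a1, Col4a1, Col4a2). UMIs were summed over the cells of each set and scaled to CPM, and a gene was called at a 1.5-fold ratio of (CPM + 10), which is 0.585 on the log2 scale, among genes with 50 CPM in 1 of the sets. Of 3270 genes other than Cxcl13, 20 were called higher (0.612%) and 63 lower (1.93%) in the Cxcl13-high cells. Folds on this scale understate the ratios of low genes. The median over all 3270 genes was -0.02 log2, with 1446 genes above 0 and 1824 below. Counts of called genes in the lists below are read against the 0.612% and 1.93% of all genes. At those shares a list of few measured genes would often hold no called gene.

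**Figure D2:**
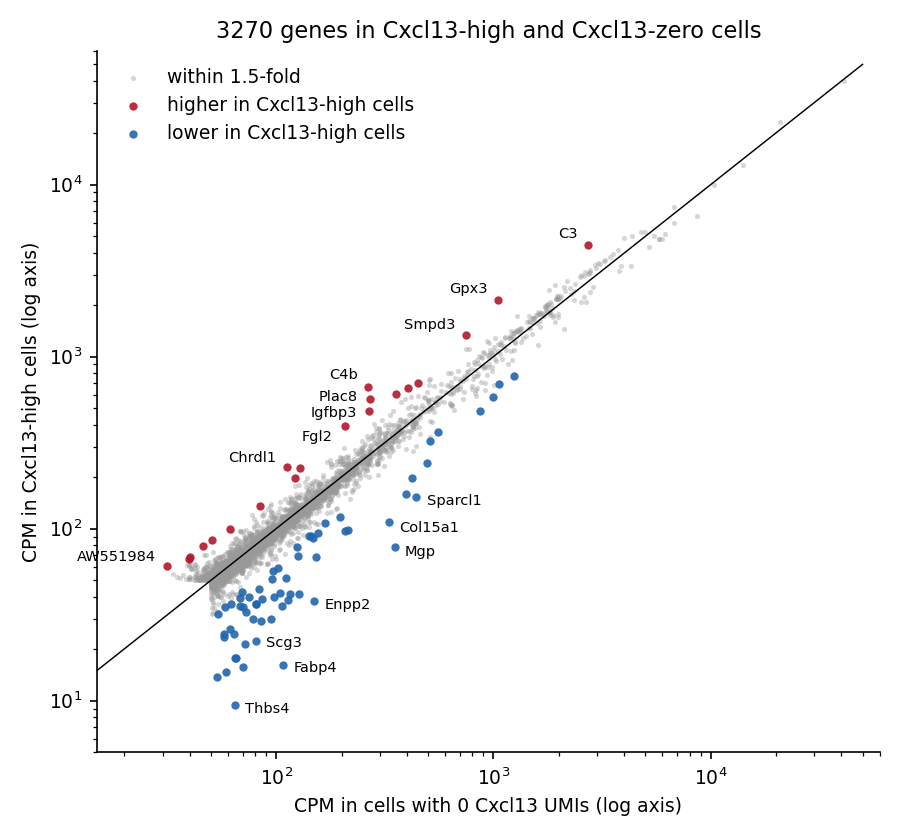
Summed level of 3270 genes in the 1000 Cxcl13-high cells against that in the 5242 Cxcl13-zero cells, in CPM on log axes, with the line of equal levels. The 20 genes called higher (red) reach up to C3 at 4476 CPM, and the 63 called lower (blue) lie mostly under 500 CPM in the Cxcl13-zero cells.

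The complement system, a cascade of plasma and tissue proteins that tags microbes and debris, was the list that stood highest with Cxcl13 in single cells. C4b, the fourth component (chromosome 17, 34728380 to 34743882), stood at 662 CPM (642 to 684) in Cxcl13-high and 266 CPM (260 to 272) in Cxcl13-zero cells, 2.49-fold more (2.40 to 2.59). In the 4 rank groups from the highest to the lowest Cxcl13, C4b stood at 779, 609.9, 692 and 578 CPM, and in the other positive cells at 416 CPM. All 4 rank groups were thus above the Cxcl13-zero cells, with the other positive cells in between. C3, the central component, stood at 4476 CPM (4421 to 4531) against 2717 CPM (2698 to 2736). Its UMIs were seen in 99.5% against 80.8% of thinned cells (99.8% and 87.5% unthinned). The whole list summed to 9851 against 6901 CPM, so C3 alone weighs heavily in the single-cell overlap of this list. Of the 16 complement genes 9 were measured, 2 (C4b and C3) were called higher and none lower, 8 were above 0 and the median was 0.25 log2. Serping1, the inhibitor of the first component, was at 2735 against 2170 CPM (0.33 log2). C1qtnf7, a secreted protein with a C1q domain, was at 70.1 against 47.7 CPM (0.47 log2).

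Fgl2, Il1r2, Il4ra, Plac8 and Lgmn were also called higher. Fgl2, a secreted or membrane-bound fibrinogen-like protein with immunoregulatory activity (chromosome 5, 21372642 to 21378374), stood at 393 CPM (377 to 409) against 207 CPM (202 to 212). Its UMIs were seen in 45.7% (42.6 to 48.9) and 25.3% (24.1 to 26.5) of thinned cells, and in 69.7% and 44.7% unthinned. Il1r2, the decoy receptor of interleukin 1, stood at 225 CPM (213 to 238) against 128 CPM (124 to 132). Both were higher in each of the 4 rank groups than in the Cxcl13-zero cells, Fgl2 at 479, 389, 364 and 346 CPM and Il1r2 at 300.4, 197, 219 and 189.7 CPM. Il4ra, a receptor chain for interleukins 4 and 13, stood at 198 against 122 CPM (0.65 log2). Plac8, a small cysteine-rich protein (chromosome 5, 100553725 to 100572245), stood at 566 CPM (547 to 586) against 270 CPM (264 to 276). The rank groups had Plac8 at 754.5, 532, 504 and 486 CPM. Lgmn, a lysosomal protease, stood at 79.0 against 46.1 CPM.

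Gpx3, a secreted selenium-dependent peroxidase (chromosome 11, 54902453 to 54910377), was among the most abundant of the genes called higher. It stood at 2141 CPM (2104 to 2179) against 1046 CPM (1034 to 1057). It was seen in 91.4% against 66.6% of thinned cells (97.8% and 81.4% unthinned). Its level followed the order of the rank groups, at 2674, 2078, 2064 and 1795 CPM, with 1496 CPM in the other positive cells. Smpd3, a membrane sphingomyelinase, stood at 1333 CPM (1304 to 1363) against 746 CPM (737 to 756).

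Further genes called higher are described singly. Chrdl1, a secreted antagonist of bone morphogenetic proteins (X chromosome, 143285674 to 143394262), stood at 229.7 CPM (217.5 to 242) against 112 CPM (108 to 116). Igfbp3, a carrier of insulin-like growth factors (chromosome 11, 7206086 to 7213923), stood at 485 CPM (467 to 503) against 268 CPM (262 to 274). It reached 668 CPM in the highest rank group and 372 CPM in the lowest. Fbln1, the matrix protein fibulin-1, stood at 607 against 358 CPM, and Sfrp2, a secreted modulator of Wnt signalling, at 705 against 449 CPM. Gadd45g, a stress-inducible gene, stood at 654 against 404 CPM. The other genes called higher were AW551984, Akr1c14, Serpina3c, Galnt15, Spon1 and Cxcl10. Of the Wnt, BMP and TGF-beta list, 12 of 28 genes were measured, 1 (Sfrp2) was called higher and none lower, and the median was 0.16 log2.

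Genes of committed preadipocytes, the fat stroma that has begun to differentiate, were lower. Of 17 list genes 11 were measured, all 11 were below 0 and 6 were called lower, with a median of -0.69 log2. Fabp4, a fatty acid carrier of maturing adipocytes and of capillaries (chromosome 3, 10204088 to 10208576), stood at 16.1 CPM (13.0 to 19.7) against 107.5 CPM (104 to 111). A single Cxcl13-zero cell held 16.4% of the Fabp4 UMIs of its set. Fabp4 was seen in 1.8% (1.07 to 2.83) and 7.50% (6.80 to 8.24) of thinned cells (4.8% and 13.0% unthinned). Lpl, the lipoprotein lipase, stood at 767 against 1245 CPM (-0.69 log2), and Sparcl1, a matricellular protein, at 153 CPM (143 to 163) against 441 CPM (433 to 448). Sparcl1 stood at 93.9, 168, 169.5 and 175.5 CPM in the rank groups and at 293 CPM in the other positive cells, all below the Cxcl13-zero cells.

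Basement membrane genes, the collagens and laminins of the sheet around vessels and adipocytes, were lower as well, and share Col4a1, Col4a2 and Col15a1 with the preadipocyte list. Of 17 genes 12 were measured, 5 were called lower (Col15a1, Col18a1, Smoc2, Col4a2 and Col4a1), none higher, and the median was -0.50 log2. Col15a1 (chromosome 4, 47208161 to 47313167) stood at 109 CPM (101 to 118) against 329 CPM (322.5 to 336), 3.01-fold less (2.78 to 3.27). In the rank groups it stood at 71.5, 112.5, 127 and 124 CPM, and in the other positive cells at 217 CPM. Col4a2 stood at 198 against 423 CPM and Smoc2, a calcium-binding matrix protein, at 159 against 395.5 CPM. The fibrillar matrix list was less shifted, with 3 of 18 measured genes called lower (Thbs1, Postn and Col5a3) and a median of -0.29 log2. The proteoglycan and elastic fibre list had a median of -0.05 log2, with Fbln1 called higher and Mfap4 and Bgn called lower among 22 measured genes.

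Of the list for stroma that regulates adipogenesis, F3 (tissue factor), Mgp and Gdf10 were called lower. Mgp, an inhibitor of calcification (chromosome 6, 136872435 to 136875823), stood at 77.8 CPM (70.8 to 85.4) against 351 CPM (344 to 358), 4.51-fold less (4.10 to 4.97). In the 4 rank groups it stood at 44.8, 142, 65.7 and 60.0 CPM, and 1 cell held 11.1% of the UMIs of the Cxcl13-high set. Of 11 list genes in the files 8 were measured, and 3 were called lower and none higher. Of the 8, 2 lay above 0, among them Eln (710 against 639 CPM), and the median was -0.42 log2. Without the cells highest for the preadipocyte and regulatory lists the median was 0.14 log2. Outside the regulatory list, Enpp2, Thbs4 and Cilp were also called lower. Enpp2, the secreted enzyme autotaxin, stood at 38.1 CPM (33.3 to 43.5) against 149.5 CPM (145 to 154). Thbs4, a matricellular protein, stood at 9.49 CPM (7.15 to 12.4) against 64.3 CPM (61.5 to 67.3). Of the Thbs4 UMIs in the Cxcl13-high set, 1 cell held 49.1%. Cilp, a cartilage matrix protein, stood at 15.7 against 70.1 CPM.

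Interstitial progenitors, the Pi16+ and Dpp4+ stroma that gives rise to the committed cells, were only slightly set apart. Pi16, a secreted peptidase inhibitor, stood at 4898 against 3978 CPM (0.30 log2) and Dpp4, a surface peptidase, at 728 against 507 CPM (0.52 log2). Pi16 was seen in 91.3% against 71.9% of thinned cells (93.9% and 79.5% unthinned). Of 14 measured genes 13 were above 0 and none was called in either direction, with a median of 0.22 log2. The sign of this median did not hold when the cells highest for the preadipocyte and regulatory lists were left out, where it was -0.02 log2. A further list, known from earlier results of these data and led by Dmkn, had Dmkn (42.1 against 104 CPM) and Sbsn (323 against 512 CPM) called lower and Smpd3 called higher.

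**Figure D3:**
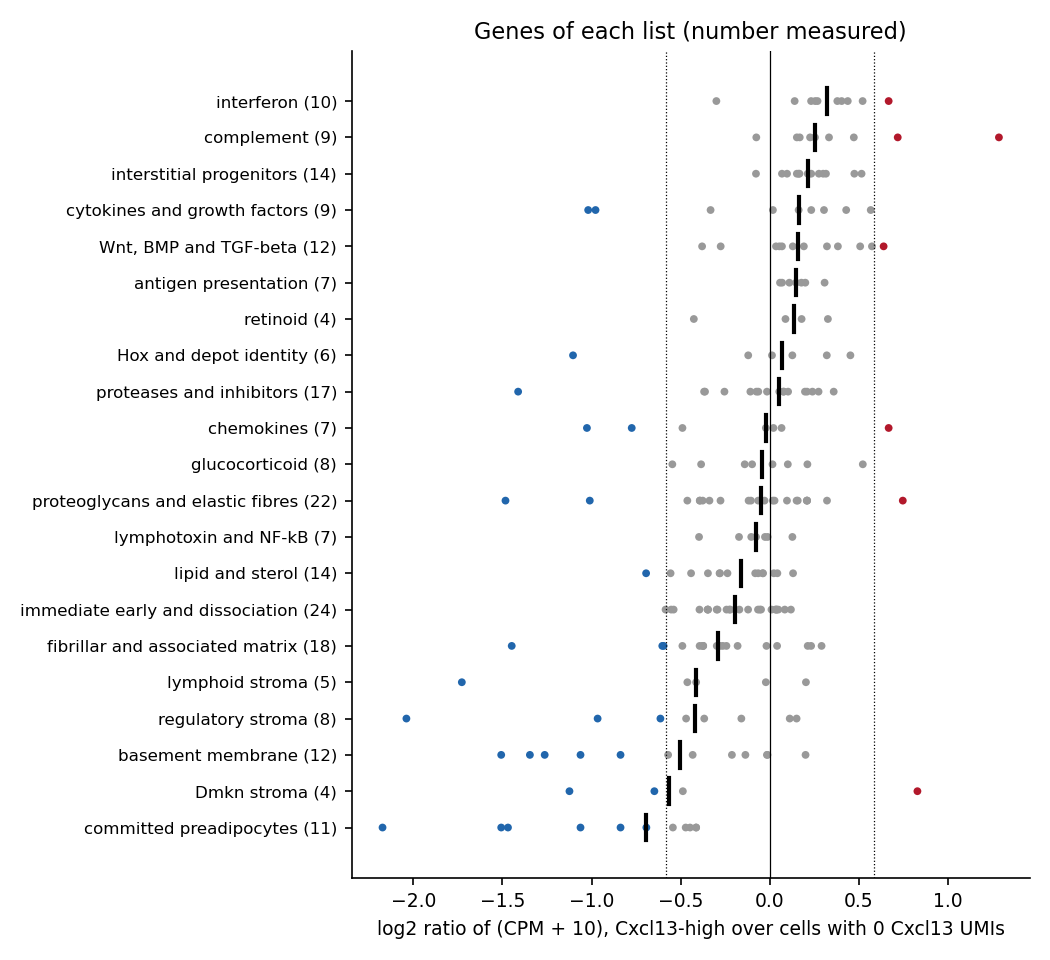
Log2 ratio of (CPM + 10), Cxcl13-high over Cxcl13-zero cells, for each measured gene of the lists with at least 4 measured genes; black bars are medians and dotted lines mark 1.5-fold. The medians run from -0.69 for committed preadipocytes to 0.32 for interferon targets.

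Few of the genes known to accompany CXCL13 in lymphoid stroma were measured here, and none of those was called higher. Of 20 genes of reticular and follicular stroma 5 were measured. None was called higher (0.612% of all genes were) and 1 (Enpp2) was called lower (1.93%), with a median of -0.41 log2. That median is the value of Icam1, which the preadipocyte list also holds. Lum, also a fibroblast marker, stood at 1162 against 1604 CPM, most of the list's summed 1798 and 2375 CPM. Ccl21a, Tnfsf11, Madcam1, Bst1, Grem1 and Coch had 0 UMIs in the Cxcl13-high cells, whose sum allows each up to 0.518 CPM. Ccl19, the partner chemokine of T cell zones, held 10 UMIs (1.73 CPM, 0.828 to 3.17) against 37 (1.24 CPM, 0.873 to 1.71). Cr2, a complement receptor of follicular dendritic cells, held 3 UMIs (0.518 CPM, 0.107 to 1.51). The adhesion genes Icam1 and Vcam1 stood at 52.1 against 72.7 CPM and 27.4 against 43.5 CPM. Tnfsf13b, the B cell survival factor BAFF, stood at 21.8 CPM (18.1 to 25.9) against 16.7 CPM (15.3 to 18.3), under the 50 CPM needed for a call. Pdpn, the podoplanin gene of reticular cells, stood at 185 against 159 CPM (0.20 log2).

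Of the pathway known to induce the chemokine, 7 of 20 genes were measured and none was called. Over all genes 0.612% were called higher and 1.93% lower, so 7 genes without a call say little of the pathway. Ltbr, the lymphotoxin beta receptor, stood at 51.8 CPM (46.1 to 58.0) against 52.9 CPM (50.4 to 55.6). Tnfrsf1a, a TNF receptor, was at 108 CPM (99.7 to 117) against 114.5 CPM (111 to 118). Relb and Nfkb2, the NF-kB subunits downstream of lymphotoxin, stood at 26.1 against 30.0 CPM and 14.5 against 18.4 CPM. Map3k14, the kinase of that branch, stood at 22.6 against 19.8 CPM. Relb, Nfkb2 and Map3k14 were under the 50 CPM needed for a call. Nfkbia and Birc3, targets of NF-kB, stood at 385 against 435 CPM and 40.0 against 55.9 CPM. The median of the 7 measured genes of 20 was -0.08 log2, with 1 above 0.

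Receptors of CXCL13 were almost unseen. Cxcr5 held 1 UMI in the Cxcl13-high cells and 2 in the Cxcl13-zero cells, and Cxcr3 held 0 and 6. The scavenging receptors Ackr3, which binds CXCL12, and Ackr1, which binds many chemokines, stood at 695 against 573 CPM and 62.0 against 56.2 CPM. Neither differed by 1.5-fold.

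Other chemokines did not follow Cxcl13 as a group. Of 20 genes 7 were measured, with 1 called higher and 2 lower, and their median of -0.02 log2 changed sign with another scaling of the sums. Cxcl10, an interferon-induced ligand of CXCR3, was called higher at 86.0 CPM (78.6 to 93.8) against 50.4 CPM (47.9 to 53.0), in 6.7% against 3.83% of thinned cells (10.3% and 6.47% unthinned). It had no order over the rank groups, at 67.2, 114, 73.3 and 89.0 CPM. Cxcl14 stood at 96.3 against 206.5 CPM and Ccl2, an attractant of monocytes, at 35.7 against 68.2 CPM, and both were called lower. In the rank groups Ccl2 stood at 15.9, 32.5, 18.7 and 72.3 CPM, the last above the Cxcl13-zero cells. Of its UMIs in the Cxcl13-high set, 1 cell held 14.5%. Cxcl12, a chemokine of many fibroblasts, stood at 264 against 268 CPM and Ccl11, an attractant of eosinophils, at 505 against 482 CPM.

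Interferon and antigen presentation genes leaned upward by small amounts. Of 10 measured interferon targets 9 were above 0, with a median of 0.32 log2, but Cxcl10 was the only one past 1.5-fold. Ifi27l2a stood at 1111 against 771 CPM (0.52 log2) and Ifit1 at 72.7 against 51.0 CPM. All 7 measured antigen presentation genes were above 0 and none was called, with a median of 0.15 log2. Vegfd, a growth factor of lymphatic vessels, stood at 119 against 77.3 CPM (0.57 log2), just under the call. Among 24 cytokine and growth factor genes, 9 were measured and 2 were called lower, Il34 and Ptn.

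Lists of dissociation response, hormone targets and metabolism held few called genes, as did all 3270 genes (0.612% higher and 1.93% lower). None of 24 measured immediate early and dissociation genes was called. Of these, 17 were below 0 (1824 of all 3270 genes were), with a median of -0.20 log2. Not called either were the 8 measured glucocorticoid targets (-0.04) or the 4 retinoid genes (0.13). Aldh1a2, a retinoic acid synthase gene of other stroma, was at 0. Of 14 measured lipid and sterol genes Hmgcs1 was called lower, and of 6 positional genes Nr2f2. The 2 measured contractile genes were not called. The 12 proliferation genes summed to 74.0 against 77.7 CPM and none was measured.

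Most of the called differences were larger in cells with more Cxcl13. Of the 20 genes called higher, 19 were higher in the first rank group than in the last. Against the Cxcl13-zero cells their median was 0.94 log2 in the first group, 0.60 in the last and 0.37 in the positive cells outside the choice. Of the 63 genes called lower, 47 were lower in the first than in the last, and their medians, in the same order, were -1.21, -0.89 and -0.53 log2. These genes were chosen by the contrast of the whole set, which fixes part of each rank group's value, and all these medians share the Cxcl13-zero cells as their base.

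**Figure D4:**
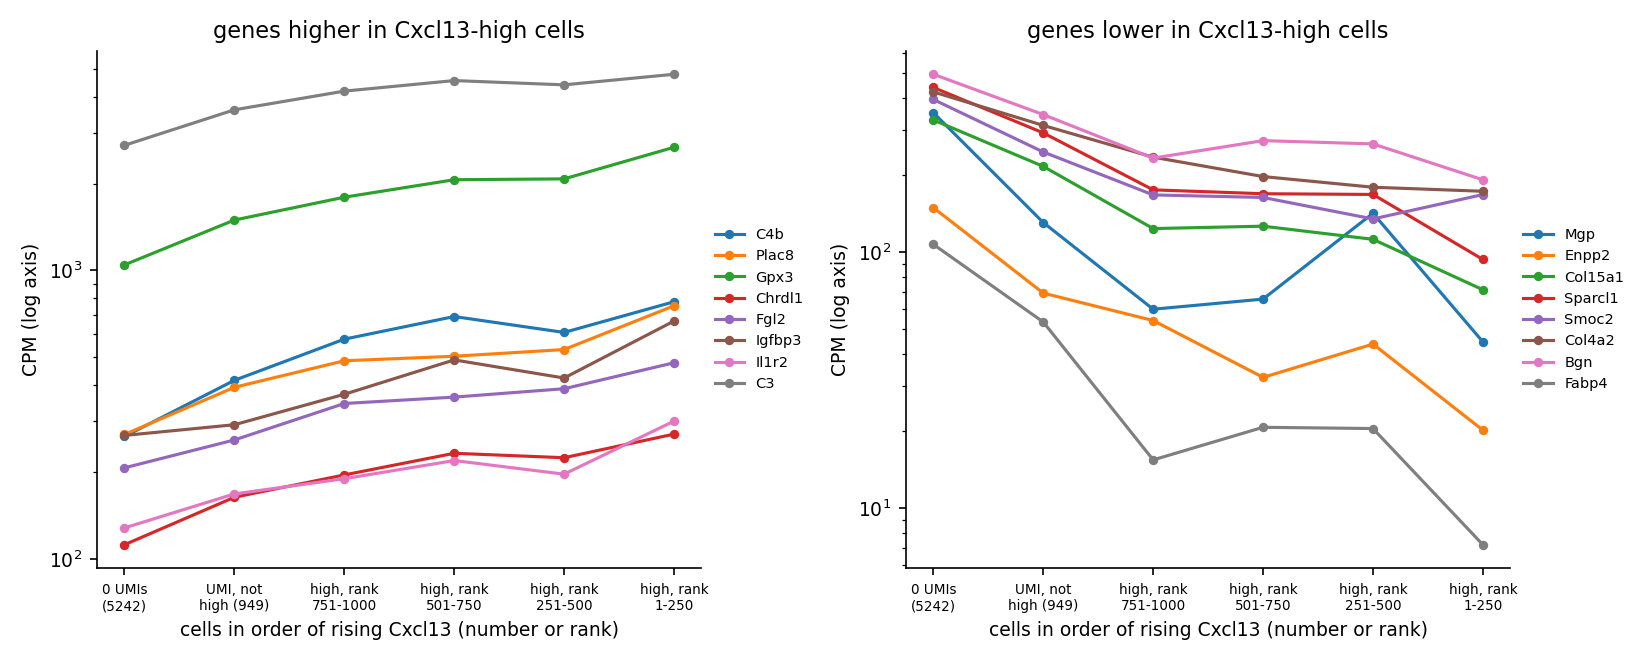
Summed level in CPM (log axis) of 8 genes called higher (left) and 8 called lower (right), in Cxcl13-zero cells, in the other positive cells and in the 4 rank groups in order of rising Cxcl13. Lines join the same gene; Gpx3 climbs from 1046 to 2674 CPM and Sparcl1 drops from 441 to 93.9 CPM, while Mgp has no even order.

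Within the Cxcl13-high cells, the first 250 were also set against the last 250. Of 3289 genes with 50 CPM in 1 of these sums, 12 were called higher (0.365%) and 31 lower (0.943%) in the first group. Mmp3, the matrix protease stromelysin, stood at 536 against 292 CPM, although over all Cxcl13-high cells (354 CPM) it was lower than in the Cxcl13-zero cells (460 CPM). Inmt, a methyltransferase gene of the regulatory list, stood at 264 against 165 CPM. Galnt15, an enzyme of O-glycosylation, stood at 199 against 109 CPM. Mmp3 UMIs lay in 94 against 80 cells, and 1 cell of each group held 13.6% and 13.7% of them. Inmt UMIs lay in 111 against 72 cells, with 11.4% in 1 cell of the last group. Plac8, Igfbp3, Il1r2 and Lgmn were called higher here too, and 1 cell held 14.2% of the Igfbp3 UMIs of the last group. In the other direction, Igfbp5, a carrier of insulin-like growth factors, stood at 2150 against 3710 CPM, Il33, an alarmin cytokine, at 145 against 239 CPM, and Sbsn at 225 against 381 CPM.

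Several inflammatory genes were lower in the first group than in the last, and rested on few cells. Ptx3, a soluble pattern recognition protein, stood at 42.6 against 168 CPM, in 27 against 61 cells. Ccl7 stood at 18.1 against 98.7 CPM, in 13 against 38 cells, and 1 cell held 34.6% of its UMIs in the last group. Ccl2 stood at 15.9 against 72.3 CPM in 9 against 30 cells, with 26.8% in 1 cell. Cxcl1, an attractant of neutrophils, stood at 83.0 against 170.3 CPM. For Hbb-bs and Ptn, 1 cell held 100% and 77.1% of the UMIs of the last group, so those differences describe single cells.

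The overlap with other states was counted in single cells. For each list the 1000 kept cells with the most list UMIs per 10000 were taken, and the share of Cxcl13-high cells among them was read against their share of all kept cells, 13.9%. Both sets hold 1000 cells, so the share is the same for each. Of the 1000 cells highest for complement genes, 287 (28.7%, 25.9 to 31.6) were Cxcl13-high. The share was 20% (17.6 to 22.6) for interferon targets, 21.2% (18.7 to 23.9) for the genes of the sort gate, 17.2% for Wnt, BMP and TGF-beta genes, 16.5% for retinoid genes and 16.3% for antigen presentation. It was 5.0% (3.73 to 6.54) for committed preadipocytes, 5.1% each for basement membrane and lymphoid stroma, and 105 of 1000 for regulatory stroma. Most UMIs of the lymphoid stroma list were of Lum, also a fibroblast marker. In the Cxcl13-high cells Ly6a gave 2427 of the 3091 CPM of the sort gate list. That list also holds Pecam1 and Ptprc, whose proteins the sort selected against. The share was 6.2% (4.79 to 7.88) for immediate early and dissociation genes. That list moves with handling of the cells, and its part in the other results was not tested. For interstitial progenitors it was 11.2% (9.31 to 13.3), below 13.9%, although 13 of the 14 summed levels were above 0. A higher summed level thus went with a lower share among the most extreme cells. With each cell thinned to 2000 UMIs the shares were 28.7% for complement, 20.2% for interferon, 12.5% for interstitial progenitors and 5.4% for preadipocytes.

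**Figure D5:**
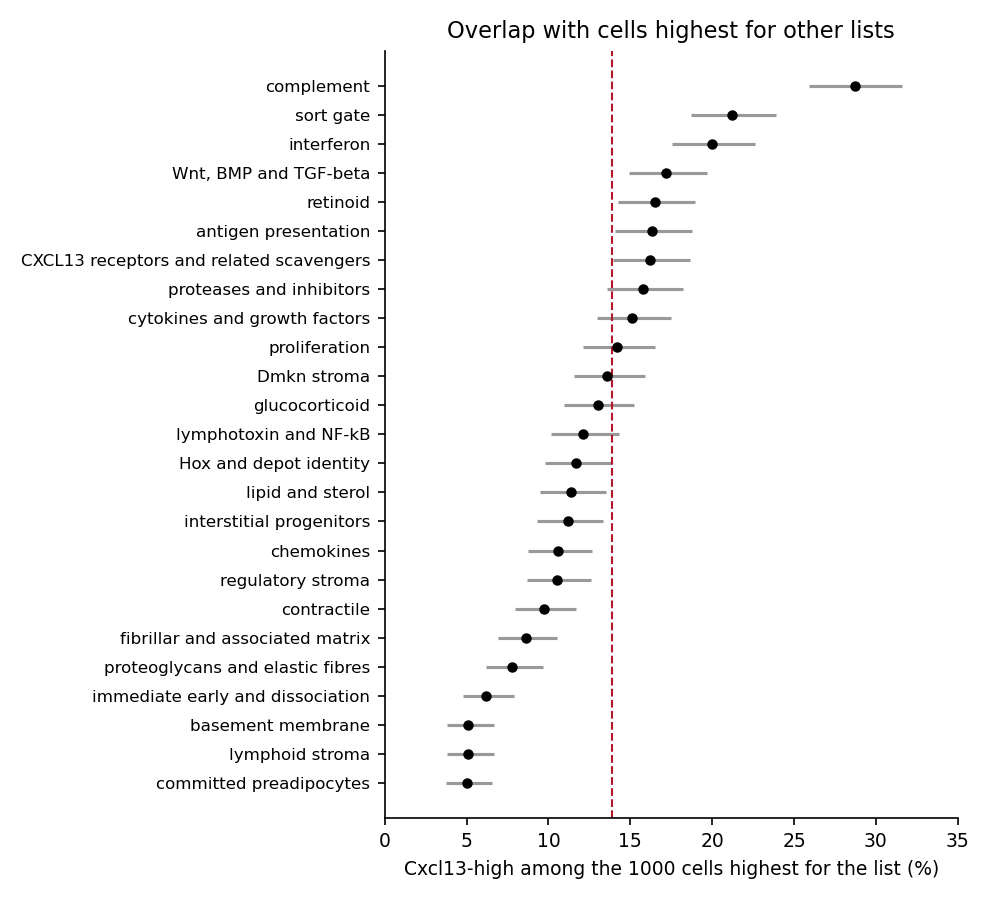
Percent of Cxcl13-high cells among the 1000 kept fat P2 cells highest for each gene list, with Clopper-Pearson 95% intervals that cover counting error only. The dashed line is their share of all kept cells, 13.9%; complement lies at 28.7% and committed preadipocytes at 5.0%.

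The comparison was also made without the 1000 cells highest for the preadipocyte list and the 1000 highest for the regulatory list. Without them, 854 Cxcl13-high and 3754 Cxcl13-zero cells remained, 17 genes were called higher and 41 lower, and 14 of the 20 and 36 of the 63 calls were kept. Since these lists hold Fabp4, Lpl, Col4a1 and Mgp, the loss of such genes' calls is fixed by the choice of the cells left out. C3, Il1r2, Il4ra, Sfrp2, Akr1c14 and Serpina3c were no longer called higher. C4b, Plac8, Gpx3, Chrdl1, Fgl2, Igfbp3, Smpd3 and Fbln1 were still called higher. In this alternative all 20 and all 63 genes kept their sign.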

How the data were processed

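The deposited matrices hold raw counts of UMIs for each gene in each barcode, in whole numbers that were not normalized, per the file headers and values. The kit was a 10x Genomics Chromium Single Cell 3' kit, v3.1, per the labels' protocols, and Cell Ranger 3.1.0 and mm10 are named in the submitters' processing notes. The annotation release is not given in the sources used here. Gene IDs that share a symbol were summed, which gave 31017 symbols.

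Cells, depth filters and the 1.5-fold rule are as stated above. The Cxcl13-high cells and the 25 gene lists and 13 marker lists were chosen with earlier results of these data known. CPM have exact Poisson and shares exact Clopper-Pearson 95% intervals, which cover counting error only. Thinning to 2000 UMIs left out no kept cell. Named genes are the 15 highest and 15 lowest (without mitochondrial, ribosomal and unnamed transcripts), the genes of the sort, up to 4 genes of each list with the largest ratios at 50 CPM, and list genes at 0. The remaining genes named were chosen for their role or after their values were seen. Some genes that this rule names are not reported here. No doublet caller was run. Removing the 7% of cells with the most UMIs, or cells with a second type's markers, served as alternatives, as did TMM scaling (edgeR 4.0.16). The comparison script was tested on simulated data. Work was done in Python 3.11.15 with numpy 2.4.6, scipy 1.17.1 and pandas 2.3.3. Promoter windows are from RefSeq on GRCm38.p6, matched by symbol for 6 of 10 genes looked up, and gene positions are those that GENCODE vM21 (GRCm38) gives for the same gene ID.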

Additional observations from a re-analysis of the deposited data

How the results depend on the processing

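Against 20 genes called higher and 63 lower, 22 alternatives were run, 18 planned and 4 added after the data were seen. Counts outside 1.5 times these values were 3 and 30 at a fold of 2, 12 and 37 with 50 CPM added, 12 and 14 with a minimum of 200 CPM, and 31 and 223 with no minimum, where 18752 genes were compared. With 500 Cxcl13-high cells 40 were called higher, and with the first 250 (added) 54 and 97. With all 1949 positive cells, all there were for the planned 2000, 8 were called higher. For positive cells outside the choice against Cxcl13-zero cells (added) the counts were 2 and 26. Without the cells highest for the preadipocyte and regulatory lists (added) 41 were lower. The part of calls that were higher was 24.1%, and 46.2% at 200 CPM, 9.09% at a fold of 2, 12.2% with no minimum, 35.8% with the first 250 cells and 7.14% for positive cells outside the choice.

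The other alternatives gave 16 to 29 higher and 51 to 88 lower calls. In all 22 the 63 lower genes stayed below 0, and the 20 higher genes stayed above 0 except 1 for positive cells outside the choice. TMM scaling moved the median of all genes from -0.02 to 0.01 log2. The medians of the sort gate, chemokine, cytokine, retinoid, protease, glucocorticoid, positional, Wnt, interstitial and regulatory lists changed sign in at least 1 alternative. All 25 overlap shares kept within their intervals with thinning. The planned lung P2 comparison was not run, since 4 cells were positive. No paired analysis was possible because the labels give no replicate numbers. With 1 library per group, differences between animals cannot be told from differences between cells.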

Other observations

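Positional genes, which record where in the body a fibroblast arose, were mostly even between the sets. En1, a homeobox gene of trunk and limb stroma, stood at 59.2 CPM (53.1 to 65.8) in the Cxcl13-high and 40.6 CPM (38.3 to 42.9) in the Cxcl13-zero cells, and Hoxc9 at 52.1 against 39.8 CPM. Nr2f2, a nuclear receptor gene, was called lower at 24.5 CPM (20.6 to 28.9) against 64.2 CPM (61.3 to 67.1). It stood at 14.4, 38.2, 20.1 and 25.2 CPM in the 4 rank groups from the highest to the lowest Cxcl13, all below the Cxcl13-zero cells. Hoxc8 stood at 72.0 against 65.1 CPM and changed sign in at least 1 alternative. Aldh1a1, a retinaldehyde dehydrogenase, stood at 101 against 78.8 CPM.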
